A study of Homo sapiens with 6 samples.

Results

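Of the 47315 probes on the array, 61 probes of 58 genes were detected on every vector control array and on no circANRIL array. The rule was a detection p under 0.01 on all 3 vector control arrays and of 0.05 or more on all 3 circANRIL arrays, for probes with a gene symbol. The detection p is the share of negative control beads at least as bright as the probe, so a high value says only that the probe could not be told from background. Of 79 probes with this pattern, 13 had no single symbol and 5 belonged to STMN2, IFI44L, CLDN7, CD44 and PRAME, which are not described here. The 61 probes and 58 genes are called vector-only below. The mirrored rule, detected only in circANRIL arrays, held for 110 probes, 94 of them with a symbol, from 83 genes. The array's annotation names 20044 genes in all.

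The cells were HEK-293, a human embryonic kidney line. The circANRIL cells, 3 samples, stably overexpressed a circular RNA made from exons of ANRIL, the long non-coding RNA of the cardiovascular risk locus on the short arm of chromosome 9, and the vector control cells, 3 samples, carried the pBI-CMV2 vector without it. That vector also expresses a green fluorescent protein, and both groups had been co-transfected with a neomycin resistance vector and selected. RNA of each sample was hybridised to 1 Illumina HumanHT-12 v4 array. The groups are called circANRIL lines and vector control lines below. The labels do not state whether the 3 samples of a group came from separately derived lines, so every p-value below measures only the spread between these arrays, and construct and line cannot be told apart. Exact permutation of 3 against 3 arrays cannot give a p below 0.1.

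Between 43.4% and 44.7% of probes were detected on the circANRIL arrays and between 44.1% and 46.8% on the vector control arrays. Of the kidney line's expected markers, VIM and CDH2 were detected on all 6 arrays and PAX2 on none. KRT18 was detected on 1 array of each group. LHX1 was detected on none of the circANRIL arrays and 2 vector control arrays, and NES on none of the circANRIL arrays and all 3 vector control arrays. NES, an intermediate filament gene, had signals of 8.12, 4.78 and 0.877 on circANRIL arrays, against 10.3, 16.4 and 14.1 on vector control arrays, just short of the rule. None of the 7 endothelial markers was detected on all arrays of a group. On all arrays of each group, 2 of 7 smooth muscle markers were detected (ACTA2 and TAGLN, with MYH11 on no array), 2 of 8 monocyte and macrophage markers (CD14 and CD68, with PTPRC on none) and 1 of the 5 pluripotency markers with a probe (SOX2, with POU5F1 on none). By limma, ACTA2 (0.73) was higher in circANRIL lines, while CD68 gave 0.56 by its brightest probe and -1.03 by another. Of 4 fibroblast markers tested, the collagens COL3A1 (-1.67), detected on 1 circANRIL array, and COL1A1 (-0.52) were lower and 2 did not pass. The fibroblast marker PDGFRA went the other way without a call, detected on 3 circANRIL arrays and 1 vector control array. The part of other cell types in the results was not tested.

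A gene reaches this kind of set when its transcript lies above the array's background in one state and below it in the other, and low-level transcripts lie close to that border. Tissue-restricted genes often lie at or near background in a cell line, among them germline genes such as the MAGE family, which are silenced in most adult cells, and matrix genes of teeth and cartilage. Promoters of broadly used genes are often rich in CpG dinucleotides, while those of tissue-restricted genes more often lack them.

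The promoter stretches of the 4 brightest vector-only genes for which RefSeq gave one are shown because they span both kinds. Each is the 200 bases before the gene's start, 5' to 3' on the gene's strand, in GRCh38.p14 and from RefSeq, with CpG in capitals. WDR72 lies at chr15:53762879-53763078 on the minus strand, ZNF544 at chr19:58228714-58228913 on the plus strand, AMBN at chr4:70592056-70592255 on the plus strand and MAGEB2 at chrX:30215363-30215562 on the plus strand.
WDR72: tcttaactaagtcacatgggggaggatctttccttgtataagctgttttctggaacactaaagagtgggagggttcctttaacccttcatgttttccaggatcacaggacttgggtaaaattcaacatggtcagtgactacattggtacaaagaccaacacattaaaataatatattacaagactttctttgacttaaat
ZNF544: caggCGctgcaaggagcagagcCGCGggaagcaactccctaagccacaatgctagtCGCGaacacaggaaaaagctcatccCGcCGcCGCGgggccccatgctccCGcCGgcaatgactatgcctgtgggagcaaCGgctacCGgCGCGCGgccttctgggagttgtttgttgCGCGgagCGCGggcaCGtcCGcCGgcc
AMBN: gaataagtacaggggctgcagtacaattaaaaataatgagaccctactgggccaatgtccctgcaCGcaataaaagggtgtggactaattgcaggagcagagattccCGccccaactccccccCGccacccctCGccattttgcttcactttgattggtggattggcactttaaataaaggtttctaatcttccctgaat
MAGEB2: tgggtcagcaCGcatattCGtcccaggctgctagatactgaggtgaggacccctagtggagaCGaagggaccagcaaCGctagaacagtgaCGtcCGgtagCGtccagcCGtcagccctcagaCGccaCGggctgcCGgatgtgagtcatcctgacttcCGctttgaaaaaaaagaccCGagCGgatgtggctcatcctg
The WDR72 stretch held 0 CpG and the AMBN stretch 4, against 14 for MAGEB2 and 23 for ZNF544.

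The rule chose the vector-only genes by these same arrays, so their levels are a description with no test. Signals are mean bead intensities of a probe in the units of the scanner, after subtraction of the mean of negative control beads and before normalization between arrays, so values below 0 are dimmer than that mean. Where a gene had several vector-only probes the brightest was used. Mean vector control signals ran from 15.7 to 430 with a median of 24.0, and mean circANRIL signals from -7.89 to 7.52 with a median of 2.98. Of the 174 values on circANRIL arrays, 54 lay below 0. By these probes most of the genes were therefore dim in vector control lines: 39 of 58 reached a mean vector control signal of 20, 10 reached 50 and 5 reached 100. For 7 of the genes another probe was detected on all 6 arrays. Among the 18392 probes detected on all 3 vector control arrays, the vector-only probes used stood between percentiles 5.72 and 73.4, with a median of 14.1.

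Folds are lower bounds and hold for the vector-only probe. FLCN, NFATC3 and FAM229B, among others, had another probe that was detected on all 6 arrays and not called by limma. The mean normalized log2 level on vector control arrays was set against, on each circANRIL array, the higher of the lowest level of any detected probe and the probe's own level. On that scale 31 genes were at least 1.5-fold lower in circANRIL lines, 17 at least 2-fold, 8 at least 3-fold, 4 at least 5-fold and 1 at least 10-fold, with a median bound of 1.51. The SD of log2 levels among vector control arrays had a median of 0.19 for these genes and 0.20 for all probes detected there. By limma, 59 of the 61 probes were lower in circANRIL lines at an adjusted p under 0.05, where 8.44% of the 21191 probes tested were, and for all 58 genes every vector control array lay above every circANRIL array, as it did for 19.3% of probes tested. Both counts follow from the rule and carry no further weight. All 61 passed the filter on low values through the vector control arrays. In RNA from whole cultures, fewer cells with a transcript and less of it per cell cannot be told apart.

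**Figure D1:**
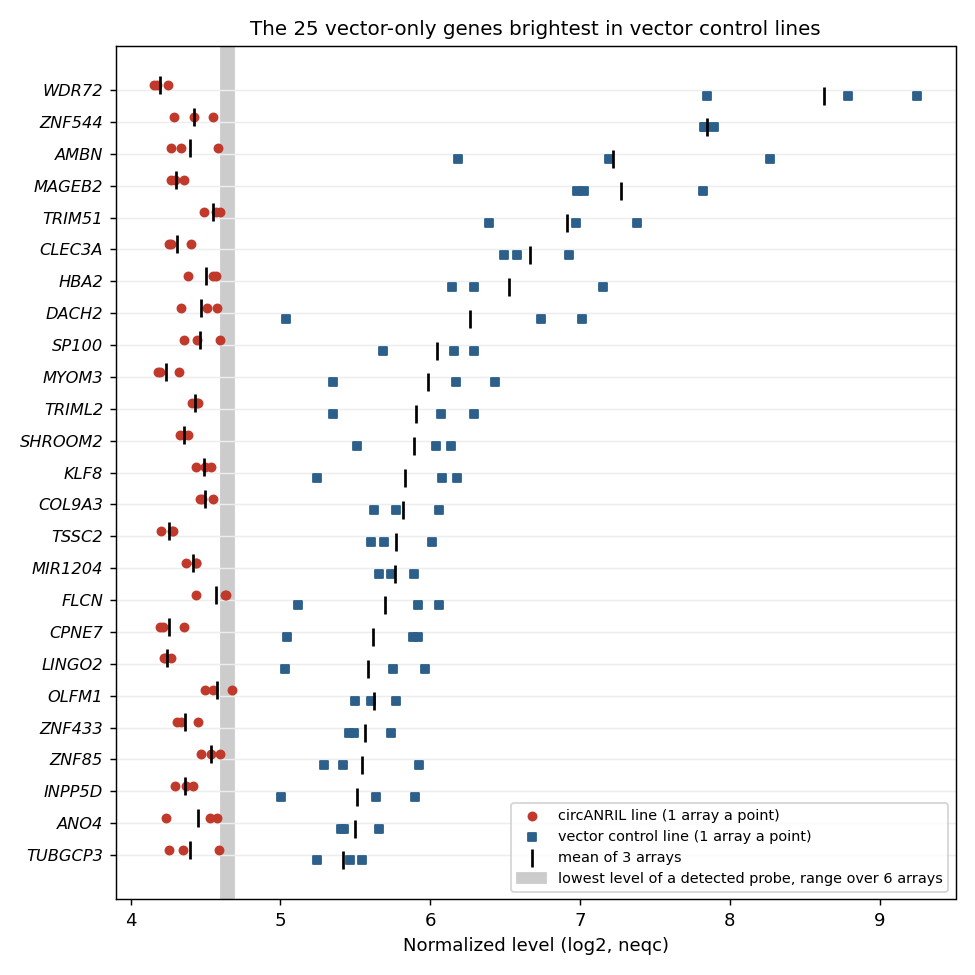
Normalized log2 level (neqc) of the 25 vector-only genes brightest in vector control lines, 1 point an array, with the mean of each group as a bar and the range over arrays of the lowest level of a detected probe as a grey band. All 3 circANRIL arrays lay within or below the band, while vector control levels of WDR72 and AMBN spread more widely among themselves than those of ZNF544.

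Genes known from teeth and cartilage are given first. WDR72, a WD-repeat protein needed for enamel mineralization, lies at chr15:53513741-53762878. Its signals were -3.38, -8.92 and -11.4 on circANRIL arrays, against 423, 616 and 251 on vector control arrays, with a mean of 430 ± 183 (SD, n = 3), and it was at least 15.6-fold lower in circANRIL lines. It stood above the median probe in vector control lines (percentile 73.4) and below the mean of negative controls on every circANRIL array. AMBN, which encodes the enamel matrix protein ameloblastin at chr4:70592256-70607288, had 3 vector-only probes. The brightest gave -2.41, 0.27 and 7.21 on circANRIL arrays, against 53.9, 305 and 152 on vector control arrays, a bound of at least 5.87-fold lower. The others were at least 4.54-fold and 2.24-fold lower, and all 3 AMBN probes were brightest on vector control array 2 and dimmest on array 1.

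CLEC3A, a C-type lectin of cartilage at chr16:78022548-78032101, had signals of -3.07, 2.37 and -2.59 on circANRIL arrays, against 76.8, 111 and 83.9 on vector control arrays. It was at least 4.0-fold lower in circANRIL lines, and at least 2.39-fold lower by its second vector-only probe. COL9A3, a chain of the cartilage collagen IX at chr20:62816213-62841159, gave 4.93, 3.98 and 6.47 on circANRIL arrays, against 48.0, 34.9 and 43.3 on vector control arrays, at least 2.22-fold lower. TLL2, a tolloid-like protease of the matrix on chromosome 10, was dimmer, with 6.14, 6.18 and 4.80 on circANRIL arrays, against 15.2, 19.7 and 32.9 on vector control arrays.

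A germline gene and TRIM-family genes are given next. MAGEB2, a cancer-testis antigen at chrX:30215563-30220089, gave -2.46, 0.889 and -1.39 on circANRIL arrays, against 106, 219 and 132 on vector control arrays, at least 6.10-fold lower. TRIM51, a RING finger gene at chr11:55883297-55891810 with close copies in the genome, gave 7.93, 6.54 and 4.99 on circANRIL arrays, against 64.6, 115 and 174 on vector control arrays, at least 4.75-fold lower. Transcripts of such copies could share a probe, so the source gene is uncertain. TRIML2, a TRIM-like gene at chr4:188091272-188109603, gave 4.06, 3.70 and 2.65 on circANRIL arrays, against 23.4, 66.2 and 58.2 on vector control arrays, at least 2.36-fold lower.

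Of the 58 genes, 6 were ZNF genes, all on chromosome 19, where clusters of KRAB zinc finger genes lie. They made up 10.3% of the vector-only genes and 3.33% of the 10292 genes detected on all vector control arrays. ZNF544, at chr19:58228914-58277455, was the second brightest of all. Its signals were 3.40, -1.49 and 6.43 on circANRIL arrays, against 218, 221 and 247 on vector control arrays (229 ± 16.1, SD, n = 3), at least 9.09-fold lower. Its vector control arrays were the closest to each other of all 58 genes, with an SD of log2 levels of 0.04. ZNF433 gave -0.655, 0.346 and 3.90 on circANRIL arrays, against 35.9, 30.4 and 31.1 on vector control arrays, and ZNF85 gave 4.76, 5.76 and 7.47 on circANRIL arrays, against 42.6, 24.1 and 29.6 on vector control arrays. They were at least 1.86-fold and 1.84-fold lower. ZNF442 gave 2.32, -2.92 and 0.301 on circANRIL arrays, against 25.2, 17.4 and 21.4 on vector control arrays. ZNF682 gave -0.666, -3.73 and -5.22 on circANRIL arrays, against 14.3, 24.9 and 14.5 on vector control arrays, and ZNF625 gave 2.38, -0.0798 and 2.06 on circANRIL arrays, against 15.4, 17.8 and 15.3 on vector control arrays. Zinc finger genes of a cluster are alike in sequence, so which of them a probe measured is uncertain. Of 159 other ZNF genes of chromosome 19 that could be tested, 19 were lower and 10 higher in circANRIL lines by limma, with a median log2 difference of -0.11.

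The other regulators of transcription were led by DACH2, a dachshund-family gene at chrX:86148451-86832602. It gave 7.47, 5.12 and 0.228 on circANRIL arrays, against 88.1, 119 and 18.9 on vector control arrays, at least 3.03-fold lower, and vector control array 3 lay far below the other two. SP100, a nuclear body protein at chr2:230416201-230545606, gave 7.97, 3.52 and 1.07 on circANRIL arrays, against 34.0, 58.5 and 70.8 on vector control arrays, at least 2.60-fold lower. KLF8, a Kruppel-like factor at chrX:55908123-56291531, gave 6.62, 3.44 and 5.23 on circANRIL arrays, against 20.7, 59.8 and 58.4 on vector control arrays, at least 2.24-fold lower. All 3 of these varied among vector control arrays by more than ZNF544 did. LHX3, a homeobox gene of pituitary and motor neurons on chromosome 9, gave -7.02, -2.89 and -0.253 on circANRIL arrays, against 17.9, 24.1 and 20.9 on vector control arrays. HNF4G, a nuclear receptor, and NFATC3, a calcineurin-regulated factor, were dim, at least 1.38-fold and 1.22-fold lower, and NFATC3 had the smallest bound of all 58 genes.

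Genes known from neurons follow. LINGO2, a leucine-rich repeat membrane protein on chromosome 9, gave -2.27, -4.45 and -5.39 on circANRIL arrays, against 15.7, 39.7 and 52.4 on vector control arrays, at least 1.89-fold lower. OLFM1, a secreted glycoprotein of brain on the same chromosome, gave 5.52, 6.11 and 9.08 on circANRIL arrays, against 30.9, 30.7 and 43.3 on vector control arrays, at least 1.94-fold lower. CPNE7, a calcium-dependent phospholipid-binding copine on chromosome 16, gave -7.08, 1.05 and -5.79 on circANRIL arrays, against 42.4, 17.8 and 48.6 on vector control arrays. The 3 differed in how far vector control arrays spread, OLFM1 least. ANO4, an anoctamin on chromosome 12, gave 6.46, -4.20 and 6.97 on circANRIL arrays, against 33.0, 28.1 and 29.2 on vector control arrays. CHRM3, a muscarinic acetylcholine receptor on chromosome 1, gave -1.54, -1.98 and -4.29 on circANRIL arrays, against 22.3, 17.4 and 25.6 on vector control arrays. The adhesion receptors were alike in size: ADGRB3 had 1.79, -0.418 and 7.84 on circANRIL arrays, against 19.4, 16.2 and 37.3 on vector control arrays, at least 1.51-fold lower. ADGRL3 had 7.75, 3.18 and -0.386 on circANRIL arrays, against 12, 22 and 19.5 on vector control arrays, at least 1.29-fold lower. CDH10, a type II cadherin on chromosome 5, gave -1.90, 4.76 and -3.45 on circANRIL arrays, against 18.6, 26.1 and 26.4 on vector control arrays. NECAB1, an EF-hand gene, was at least 1.34-fold lower.

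Genes of muscle, cytoskeleton and blood were also present. MYOM3, a myomesin of the muscle M-band at chr1:24056041-24112135, gave -0.0451, -6.99 and -8.25 on circANRIL arrays, against 23.5, 74.5 and 63.5 on vector control arrays, at least 2.50-fold lower. SHROOM2, an actin-binding protein at chrX:9786429-9949443, gave 0.397, 1.76 and 0.924 on circANRIL arrays, against 28, 52.2 and 61.6 on vector control arrays, at least 2.34-fold lower. Like TRIML2 and KLF8, both were dimmest on array 1 among the vector control arrays. TUBGCP3, a subunit of the gamma-tubulin complex on chromosome 13, gave 7.83, -3.05 and 0.737 on circANRIL arrays, against 20.8, 32.3 and 31.2 on vector control arrays. HBA2, an alpha-globin gene at chr16:172876-173710, gave 2.27, 6.53 and 6.44 on circANRIL arrays, against 52.0, 132 and 70.6 on vector control arrays, at least 3.63-fold lower. Its near-identical copy HBA1 cannot be told apart from it. INPP5D, the phosphatase SHIP1 of blood cells, gave 3.26, -1.20 and 1.53 on circANRIL arrays, against 41.6, 35.3 and 17.9 on vector control arrays, at least 1.80-fold lower. CD79A of the B cell receptor, the interleukin receptor subunit IL20RB and the NOD-like receptor gene NLRP11 were at least 1.31-fold, 1.51-fold and 1.51-fold lower.

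FLCN, the tumour suppressor folliculin at chr17:17212212-17237330, gave 9.03, 3.29 and 8.18 on circANRIL arrays, against 48.2, 46.5 and 20.9 on vector control arrays, at least 2.05-fold lower by this probe. Another FLCN probe, detected on all 6 arrays, gave a log2 difference of -0.12 and was not called by limma. Several further genes belong to machinery that most cells use, and these were close to the limit of detection. RBM8A of the exon junction complex, the nucleolar protein NOP9, the mTOR complex subunit RICTOR and the cyclin-dependent kinase inhibitor CDKN1C were at least 1.46-fold, 1.33-fold, 1.28-fold and 1.32-fold lower. The histone H3 gene H3C10 was at least 1.26-fold lower, and the other histone H3 genes, alike in sequence, cannot be told apart from it with certainty. PRSS8, the serine protease prostasin of epithelia, gave 5.79, 1.09 and 7.54 on circANRIL arrays, against 12.7, 14.8 and 21.6 on vector control arrays. S100A13, a calcium-binding protein, gave 5.09, -1.29 and 0.945 on circANRIL arrays, against 15.2, 17.1 and 20.5 on vector control arrays. The remaining 10 coding genes were the kinase STK24, the lipid and organic anion transporters ABCA1 and SLCO1A2, the cyclotransferase GGACT, the membrane phosphoesterase TMPPE, the LIM protein CRIP2, the Hippo pathway gene WWC2, the raftlin RFTN2, FAM229B and FAM227B. Their bounds lay between 1.25-fold for STK24 and FAM227B and 1.58-fold for GGACT.

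There were 3 genes without a protein product. TSSC2, a transcribed pseudogene at chr11:3380961-3409148, gave -1.91, -6.36 and -2.22 on circANRIL arrays, against 30.9, 37.2 and 54.7 on vector control arrays, at least 2.15-fold lower. MIR1204, a microRNA gene at chr8:127795962-127796028, gave 1.87, 3.34 and 3.43 on circANRIL arrays, against 41.4, 39.1 and 38.4 on vector control arrays (39.6 ± 1.53, SD, n = 3), at least 2.14-fold lower. It lies inside PVT1, a long non-coding RNA gene at chr8:127794524-128101256, and RNA of the host gene and of the microRNA precursor cannot be told apart by this probe. The long non-coding LOC101928126 on chromosome 21 was at least 1.68-fold lower. Another protein-coding gene overlaps 17 of the 58, among them GGACT and PCCA, TMPPE and GLB1, and STK24 and FARP1, and which transcript such a probe measured is uncertain.

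The thresholds lie within a continuous range of dim probes. Just inside on the circANRIL side were FLCN, OLFM1, RFTN2, H3C10 and IL20RB, whose lowest circANRIL detection p ran from 0.0506 to 0.0558. Just outside were RNFT2, IGSF11, KIAA1549, THSD1 and VPS13D, with a lowest p between 0.0429 and 0.0468. OLFM1 averaged a signal of 6.91 on circANRIL arrays and 35.0 on vector control arrays inside the rule, and IGSF11 averaged 6.37 on circANRIL arrays and 21.6 on vector control arrays outside it. On the vector control side the nearest inside were FAM227B, RICTOR, STK24, ADGRL3 and the dimmest AMBN probe, with a highest p between 0.00779 and 0.00909. Just outside were SELENOH, LINC00839, PI4KA, RSPH4A and PPP2R2C, between 0.0117 and 0.0143. In all, 98 named probes missed the rule by 1 circANRIL array and 111 by 1 vector control array. The pattern held for 0.472% of the 16753 probes detected at 0.01 on all vector control arrays, and the mirrored pattern for 0.688% of the 15989 detected so on all circANRIL arrays.

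Other probes of the same genes were not chosen by the rule, though they come from the same arrays and are no independent samples. There were 45 of them, for 23 genes, and 16 probes of 12 genes passed the filter on low values. By limma, 7 of these 16, in 6 genes, were lower in circANRIL lines and 0 higher, where 8.44% of all probes tested were lower and 9.27% higher. The median log2 difference (circANRIL minus vector control) was -0.45, against -0.04 over all probes tested. Both the count and this median include probes that passed the filter only through the vector control arrays, so neither contrast with all probes adds support. The NECAB1 probe, which did not pass the test, was among them, detected on no circANRIL array. Of the 7, the CHRM3, ANO4 and HBA2 probes were detected on 1 circANRIL array and on all 3 vector control arrays, so they passed the filter only through the vector control arrays and their calls add no support. The other 4 were detected on all 6 arrays and were lower also when only probes detected at 0.01 on every array were tested.

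CHRM3 had the largest of these differences. The tested one of its 2 other probes had log2 levels of 4.83, 4.54 and 4.54 on circANRIL arrays, against 6.71, 6.40 and 6.52 on vector control arrays, a difference of -1.91 ± 0.19 (SE; adjusted p = 3.43e-06 by limma). The second was detected on no array, with 4.33, 4.45 and 4.19 on circANRIL arrays, against 4.24, 4.27 and 4.20 on vector control arrays, so the groups overlapped. The other probe of ADGRL3 was detected on all 6 arrays, with 5.93, 5.72 and 5.66 on circANRIL arrays, against 6.75, 7.16 and 7.11 on vector control arrays (-1.24 ± 0.20, adjusted p = 0.000493 by limma). The ANO4 and HBA2 probes, detected on 1 circANRIL array, gave -1.05 and -0.87, and HBA2's lost its call without circANRIL array 2.

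STK24 and S100A13 were well expressed by other probes in all lines. STK24 had log2 levels of 10.69, 10.65 and 10.79 on circANRIL arrays, against 11.27, 11.41 and 11.08 on vector control arrays, a difference of -0.55 ± 0.13 (adjusted p = 0.00803 by limma). S100A13 was lower by 2 of 3 other probes tested, with differences of -0.84 and -0.68. For both genes the vector-only probe thus gave a dim reading of a gene that another probe found in both groups. ZNF682 had 2 other probes that differed. The bright one had 11.24, 11.42 and 11.88 on circANRIL arrays, against 11.27, 11.66 and 11.49 on vector control arrays, a difference of 0.04 ± 0.16 (adjusted p = 0.89 by limma). The dim one, detected on 1 vector control array only, had 4.25, 4.22 and 4.22 on circANRIL arrays, against 4.48, 4.67 and 4.49 on vector control arrays. FLCN (-0.12), FAM229B (-0.36), TMPPE (-0.48), NECAB1 (-0.42) and NFATC3 (-0.23, -0.24 and -0.34) did not pass the test at other probes.

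For the brightest genes the other probes gave little. The other WDR72 probe was detected only on vector control array 3, at 3.33, 0.174 and -5.17 on circANRIL arrays, against 0.256, -0.98 and 16.1 on vector control arrays. The other probes of ZNF544 and MAGEB2 were detected on no array. The 2 other SP100 probes were each detected on no circANRIL array and on 2 vector control arrays. In all, 17 of the 45 other probes were detected on no array, 9 probes of 7 genes on all 6, and 35 of the 58 genes had no other probe. The count of 7 fell to 4 when only probes detected at 0.01 on every array were tested and rose to 12 with no filter, while the methods' unmoderated test called 2.

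**Figure D2:**
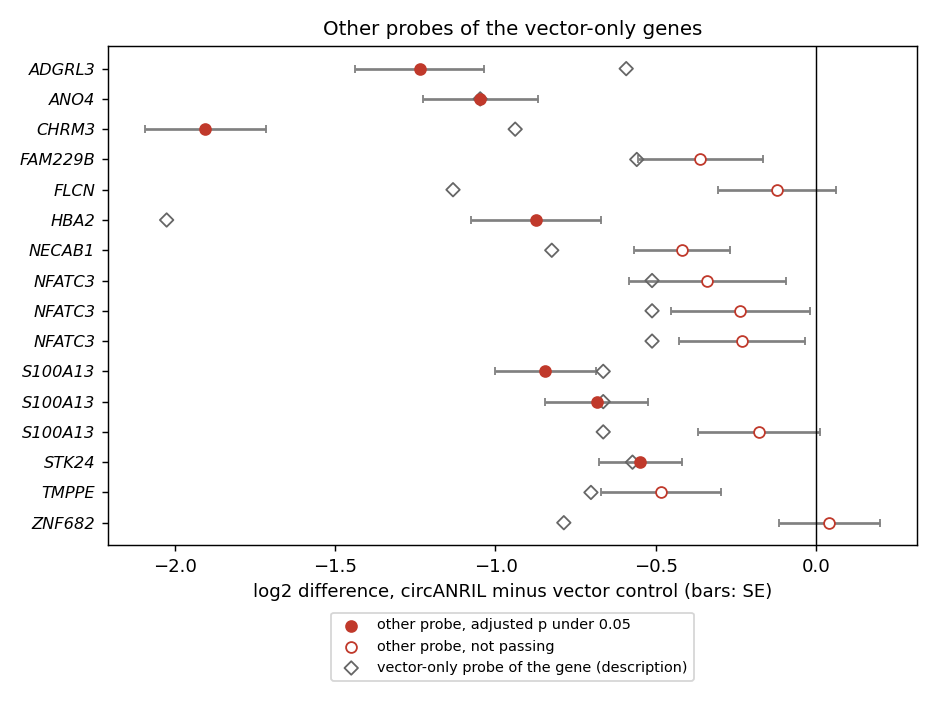
Log2 difference (circANRIL minus vector control, bars SE) of the 16 other probes tested, filled where the adjusted p was under 0.05, with the gene's brightest vector-only probe as a diamond. The 7 filled points, from CHRM3 at -1.91 to STK24 at -0.55, all lie below 0, 3 of them (CHRM3, ANO4 and HBA2) detected on 1 circANRIL array, and the tested ZNF682 probe lies at 0.04.

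Genes that start within 1 Mb of a vector-only gene were tested next, since neither the rule nor the choice of probes used them. There were 741 such genes around 54 of the 58. By limma, 88 (11.9%) were lower in circANRIL lines and 63 (8.5%) higher, where 9.26% and 11.4% of all 12134 genes were, with 1 probe a gene. Their median log2 difference was -0.05, against -0.02 over all genes, and the shares were not compared by a test. Of those lower, GRIN1 and S100A4 were detected on no circANRIL array and passed the filter only through the vector control arrays. So did others, among them CARD9 and PHLDA2 on 1 circANRIL array and PVT1 on 2. Of those higher, CDH1 and SLC67A1, on 0 and 1 vector control arrays, passed it only through the circANRIL arrays. The counts, like the shares over all genes, include such genes, so the contrast between them adds no support. The count of 88 lower fell to 55 without circANRIL array 2, to 49 without circANRIL array 3 and to 32 with background-subtracted signals floored at 16.

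The neighbours of MIR1204 changed most. PVT1, its host gene, had log2 levels of 4.46, 4.71 and 4.75 on circANRIL arrays, against 9.43, 9.14 and 9.12 on vector control arrays, a difference of -4.59 ± 0.19 (adjusted p = 7.86e-11 by limma). It was detected on 2 of 3 circANRIL arrays and on all vector control arrays, and so lies outside the rule. The filter needed 3 arrays, so PVT1 passed it only through the vector control arrays and its call adds no support. The MIR1204 probe may read RNA of PVT1, so they are not separate results. MYC, the proto-oncogene next to PVT1, had levels of 10.90, 10.95 and 11.23 on circANRIL arrays, against 12.19, 12.13 and 12.21 on vector control arrays (-1.15 ± 0.12, adjusted p = 7.57e-06 by limma), and its second probe gave -1.43. For PVT1 and MYC no circANRIL array reached a vector control array, as was so for 19.3% of all probes tested. MIR1204 itself was chosen by its levels and adds nothing to this.

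On chromosome 13 the neighbours of all 3 vector-only genes were lower where they passed. Around TUBGCP3, 4 of 7 were lower and 0 higher, led by the lysosomal membrane protein LAMP1 (-1.46) and DCUN1D2 (-1.27), with PCID2 (-0.79) and the ubiquitin ligase scaffold CUL4A (-0.83). Around STK24, 2 of 5 were lower, the importin IPO5 (-1.09) and UBAC2 (-0.66), and around GGACT, 2 of 5, the zinc finger factor ZIC2 (-0.92) and CLYBL (-0.97). UBAC2 lost its call without circANRIL array 2. The vector-only probes of TUBGCP3, STK24 and GGACT were not bright, though another STK24 probe was. Genes beside these vector-only genes stood well above background: LAMP1 had levels of 9.79, 9.40 and 9.41 on circANRIL arrays, against 11.04, 10.86 and 11.07 on vector control arrays.

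Around LHX3, 13 of 35 neighbours were lower and 1 higher, among them CARD9 (-1.52), an adaptor of innate immunity, and the receptor NOTCH1 (-1.21). CARD9, detected on 1 circANRIL array, passed the filter only through the vector control arrays, so its call adds no support. The single higher gene was LRRC26 (1.59). Around OLFM1 on the same chromosome, 4 of 11 were lower, among them the chromatin protein WDR5 (-0.84) and MRPS2 (-0.82), but a second WDR5 probe gave 0.37 and did not pass, and MRPS2 is counted around LHX3 as well. Around RBM8A 5 of 11 were lower, among them LIX1L (-0.86) and RNF115 (-0.61), and RNF115 lost its call without circANRIL array 2. Around S100A13 8 of 29 were lower and 1 higher, and around HBA2 9 of 39 and 2, with AXIN1 of the WNT pathway (-0.72) and RPUSD1 (-1.01) lower and the nucleoside diphosphate kinase NME4 (1.06) higher.

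Of the brightest vector-only genes, ZNF544 had 38 measured neighbours, 5 lower and 3 higher, while WDR72, MAGEB2, TRIM51 and AMBN had few. None of the 2 around WDR72, the 2 around MAGEB2 or the 2 around TRIM51 passed the test. Around AMBN, 2 of 6 were lower, GRSF1 (-0.69) and RUFY3 (-0.70). GRSF1 lost its call without circANRIL array 2, RUFY3 without vector control array 2 or circANRIL array 3, and both when signals were floored. Around CDKN1C, which lies in an imprinted cluster with PHLDA2 and SLC67A1, 4 of 14 were lower and 1 higher: PHLDA2 gave -1.27, NUP98 gave -1.29 and SLC67A1 gave 0.58. PHLDA2, detected on 1 circANRIL array, passed the filter only through the vector control arrays, so its call adds no support. SLC67A1, detected on 1 vector control array, passed it only through the circANRIL arrays, so its call adds no support either. It lost its call without vector control array 2 or 3 and without any one circANRIL array. The 2 further NUP98 probes gave -0.50 and -0.56 and did not pass. The only neighbour of CHRM3, the actin nucleator FMN2, moved the other way from it, at 1.88 ± 0.19 (adjusted p = 4.21e-06 by limma).

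**Figure D3:**
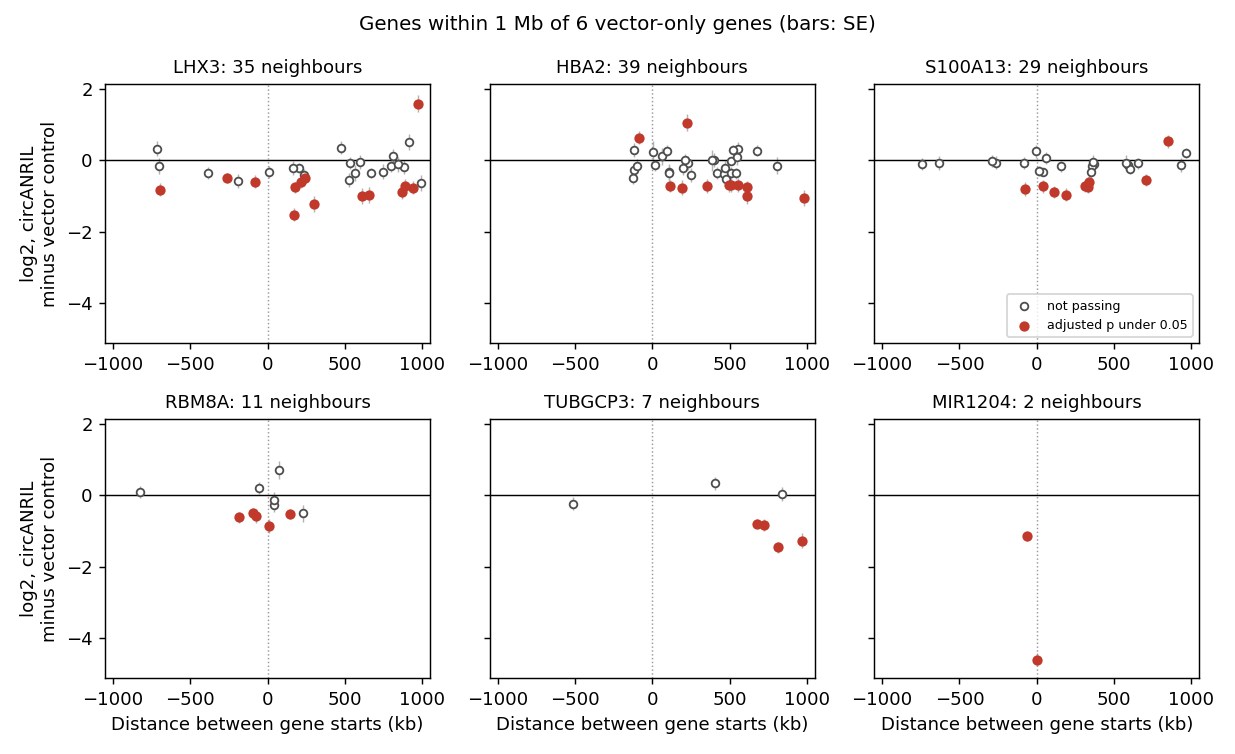
Log2 difference (circANRIL minus vector control, bars SE) of genes within 1 Mb of 6 vector-only genes, by distance between gene starts in kb, filled where the adjusted p was under 0.05. Around TUBGCP3, 4 of 7 neighbours lie below 0 and passed, all on one side of it. PVT1, at -4.59, lies beside MIR1204 and passed the filter on low values only through the vector control arrays.

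By chromosome, 8 of the 58 genes (13.8%) lay on 19, which holds 6.53% of the genes detected on all vector control arrays. Chromosome 13 held 3 (5.17% against 1.84%), 4 held 4 (6.90% against 3.77%), X held 4 (6.90% against 3.50%) and 16 held 5 (8.62% against 4.54%). None lay on 7, 18, 22 or Y. The other genes of these chromosomes differed in direction. On 13, 67 of 220 were lower and 11 higher, with a median log2 difference of -0.28, and on 4, 96 of 434 were lower and 24 higher, with a median of -0.27. On X, 8 of 431 were lower and 154 higher, with a median of 0.29, so MAGEB2, DACH2, SHROOM2 and KLF8 lie on a chromosome whose other genes were seldom lower. On 19, 44 of 802 were lower and 91 higher, and the median of 0.05 turned to -0.06 with median scaling, under which the median over all genes moved from -0.02 to -0.14. The medians of 4, 13 and X kept their signs under all 4 other scalings.

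**Figure D4:**
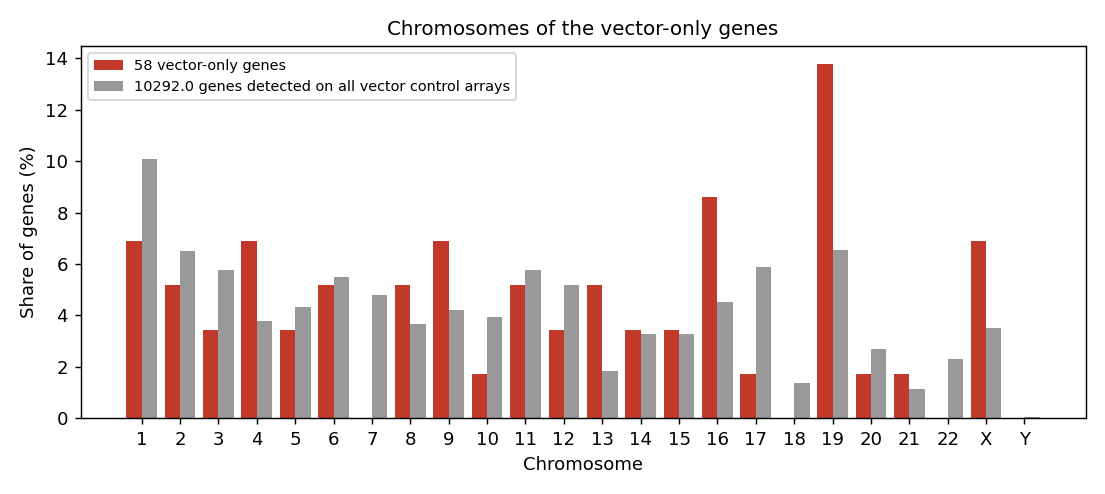
Share (%) of the 58 vector-only genes on each chromosome, left bars, and of the 10292 genes detected on all vector control arrays, right bars. Chromosome 19 holds 13.8% of the vector-only genes and 6.53% of the detected genes.

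Promoters of 46 of the 58 genes were matched in RefSeq (GRCh38.p14), as 300 bases from 250 before to 50 after the transcript start used there. For some genes, among them LINGO2, KLF8 and ANO4, that start lies inside the gene's span and not at its edge. The ratio of observed to expected CpG was under 0.6 in 22 of 46 (47.8%). The shares were 25% of 56 genes detected only in circANRIL arrays, 22.9% of 1945 genes in the dimmest 25% of the other genes detected on all vector control arrays, 13.7% of all 8380 of those, and 51.0% of 27305 promoters in the table. CpG-poor promoters were thus about as common among the vector-only genes as among all promoters and more common than among other detected genes, a difference not tested here. WDR72 (0.089), LINGO2 (0.089) and TRIM51 (0.093) had the lowest ratios, and ADGRB3 (1.208) the highest. As the printed stretches show, bright vector-only genes stood at both ends, with 0.329 for AMBN, 0.788 for MAGEB2 and 0.926 for ZNF544. All zinc finger genes but ZNF544, ZNF433 (0.78) and ZNF625 (0.616) were under 0.6.

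Short motifs were searched on both strands of the same windows. TATAAA stood in 3 of 46 (6.52%), CCAAT in 21 (45.7%), GGGCGG in 28 (60.9%), CACGTG in 3 (6.52%) and TGACTCA in 4 (8.70%). The shares among other genes detected on all vector control arrays were 5.51% for TATAAA, 37.9% for CCAAT, 71.4% for GGGCGG, 10.8% for CACGTG and 2.64% for TGACTCA. Among all promoters they were 12% for TATAAA, 35.7% for CCAAT, 44.6% for GGGCGG, 7.43% for CACGTG and 4.92% for TGACTCA. The 4 with TGACTCA were MAGEB2, SP100, TRIML2 and NLRP11. A match is a run of letters and no evidence of a bound site.

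**Figure D5:**
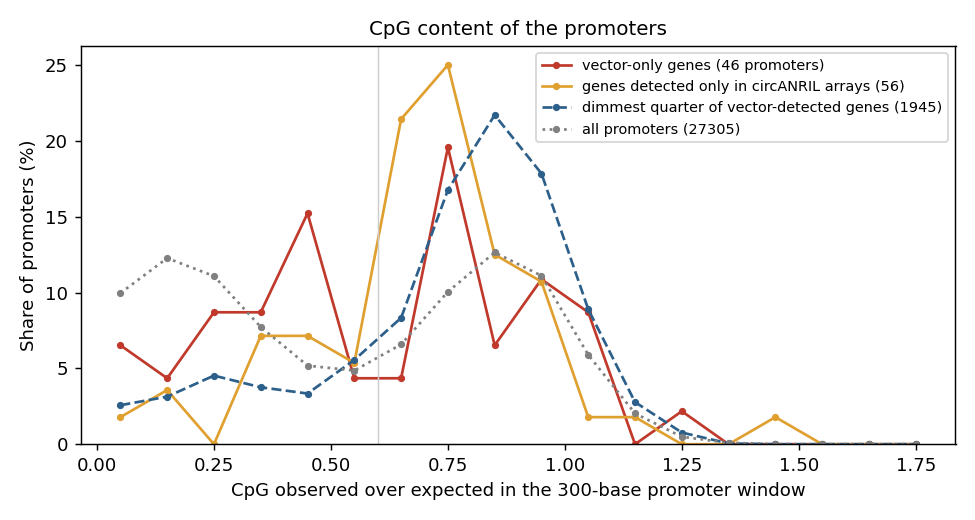
Share of promoters (%) by the ratio of observed to expected CpG in the 300-base window, in steps of 0.1, for vector-only genes, genes detected only in circANRIL arrays, the dimmest 25% of the other vector-detected genes and all promoters. Of the vector-only promoters 47.8% lie under 0.6 (grey line), against 22.9% of the dimmest 25%.

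In 8 of 17 gene lists a vector-only gene was present, and the other genes of each list were counted by limma. Over all lists, 119 of 583 other genes were higher and 63 lower, where 11.4% and 9.26% of all genes were. These counts, like the shares over all genes, include genes that passed the filter through 1 group only. The metallothionein, S100 and annexin list, which holds S100A13, had 5 of 18 lower and 1 higher: the membrane-binding annexin ANXA2 (-1.02) and its partner S100A10 (-0.82) fell, and the metallothionein MT1F rose (1.97). The cancer-testis list of MAGEB2 had 2 of 9 lower and 0 higher, the germ cell genes TEX15 (-0.90) and TEX14 (-0.54). TEX14 was detected on no circANRIL array, passed the filter only through the vector control arrays, and lost its call without vector control array 1, without circANRIL array 3 and when signals were floored.

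The lists of the other vector-only genes went the other way or both ways. The developmental transcription factor list of LHX3 had 8 of 105 lower and 25 higher: SOX11 (5.38) and SOX3 (2.62) rose, and GATA2 (-1.48) and SOX21 (-1.05) fell. SOX11 and SOX3 were detected on no vector control array and passed the filter only through the circANRIL arrays, so their calls add no support. The matrix list of COL9A3 had 9 of 41 lower and 12 higher, with CCN3 (-4.50) and the tenascin TNC (-3.06) lower and the collagen COL4A5 (1.65) and the protease ADAMTS1 (1.51) higher. Among cadherins, CDH10's list, 0 of 12 were lower and 1 higher, the epithelial CDH1 (1.75), which was detected on no vector control array and passed the filter only through the circANRIL arrays. The muscle list of MYOM3 had 2 of 24 lower and 3 higher, and MYOM2, a myomesin like MYOM3, rose by 3.69 ± 0.24 (adjusted p = 2.35e-08 by limma). The epithelial list of PRSS8 had 3 of 22 lower and 7 higher, led by MAL2 (2.28) and EPCAM (3.66), and the receptor list of CHRM3 had 3 of 48 lower and 7 higher, led by the prostaglandin receptor PTGER2 (2.17). MAL2, like CDH1, was detected on no vector control array and passed the filter only through the circANRIL arrays. So did PTGER2, detected on 2 vector control arrays.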

How the data were processed

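Arrays were grouped by their labels, 3 circANRIL and 3 vector control. The authors preprocessed the bead data in GenomeStudio (version 2011.1). The deposited table gives intensity per probe, background-subtracted and not normalized, and a detection p-value, which the authors' software set in steps of 1 in 770. A second deposited table of normalized intensity served as an alternative. In R 4.3.3, limma (3.58.1) normalized the signals by neqc with an offset of 16. Probes reaching detection (p under 0.05) on 3 or more of 6 arrays were tested by lmFit and eBayes with Benjamini-Hochberg adjustment and a threshold of 0.05, two-sided. The fit was tested on simulated data. Of 30110 probes with 1 symbol, 30071 matched the GRCh38.p14 gene table by identifier. Full values are given for the 25 vector-only genes brightest in vector control lines and those in a list or family. Other genes were named by smallest adjusted p per list, and neighbours after their values were seen. The vector-only genes and all lists were chosen with earlier results of these data known. No batch, slide or date is given for the arrays. Alternatives changed thresholds, background, scaling, filter, test and the arrays used.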

Additional observations from a re-analysis of the deposited data

How the results depend on the processing

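The 58 vector-only genes depended on the detection thresholds: 154 met 0.05 and 0.05, 232 met 0.01 and 0.01, and 28 met 0.01 and 0.1, and 74 to 105 met the rule when 1 array was left out, since fewer arrays then had to meet it. The median bound of 1.51 was 1.22 with neqc offset 50 and 1.14 in the authors' normalized table, and 1.496 to 1.58 without 1 array. Of all probes, 1788 were lower and 1965 higher. Signals floored at 16 gave 705 lower and 824 higher, and the methods' t-test after Benjamini-Hochberg adjustment 203 and 281. Median scaling gave 2974 lower and 1418 higher, so 32.3% of calls were higher against 52.4%. Leaving out 1 array gave 908 to 1513 lower and 1230 to 1809 higher. Neighbours lower, 88, were 32 when floored, 11 by the t-test and 49 to 76 without 1 array. Other probes lower, 7, were 4 with the strict filter, 12 unfiltered, 2 by the t-test and 6 to 7 without 1 array. List genes lower, 63, were 27 when floored, 41 with the strict filter, 9 by the t-test and 47 to 62 without 1 array. Signs were compared for the other probes and the named neighbours and list genes, and turned for 4 other probes that did not pass: ZNF682 (0.04) gave -0.13 with median scaling and -0.14 to 0.18 without 1 array, and without 1 array FLCN gave -0.23 to 0.009, an NFATC3 probe -0.54 to 0.041 and an S100A13 probe -0.30 to 0.039. When floored, HBA2's other probe, 11 of the named neighbours and the list genes TEX14, EPCAM, S100A10, NEFL, CACNA1H, CSTB and ITGA8 lost their calls. The median of chromosome 19 (0.05) was -0.06 with median scaling. The cause was not tested. Deviations of same-numbered arrays correlated at 0.00261, 0.0819 and -0.126, so the numbers do not pair the arrays, and with the replicate number as a block 1637 probes were lower, 1894 higher, 7 other probes, 84 neighbours and 66 list genes lower. The number of arrays limits precision.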

Other observations

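The 9 lists without a vector-only gene held further differences between the lines. In the immediate early and MAPK feedback list 12 of 36 genes were higher in circANRIL lines and 5 lower by limma, with ETV5 (2.75) and FOS (2.26) higher and the factor KLF4 (-2.64) lower. A second ETV5 probe, detected on 1 vector control array, gave 0.78. Among cytokines and growth factors 13 of 43 were higher and 3 lower, led by BMP2 (2.40) upwards and GAS6 (-1.38) downwards. NRG1 was 3.09 higher by its brightest probe and 2.79 by another, while the remaining probe gave 0.21 and did not pass. Interferon-stimulated genes were higher in 9 of 39 and lower in 4, with OAS3 at 1.92 and IFI27 at -1.37. Neuronal cytoskeleton and vesicle genes were higher in 5 of 28 and lower in 7, and the neurofilament genes differed among themselves, with INA at 3.75, NEFL at 1.08 and NEFM at -5.36. OAS3 and both higher NRG1 probes were detected on no vector control array, INA on 1 and the brightest ETV5 probe on 2. They passed the filter only through the circANRIL arrays, so their calls add no support.

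The axon guidance list had 4 of 31 higher and 3 lower, with FLRT2 at -3.63, the integrins 3 of 15 higher and 0 lower, and the WNT, BMP, NOTCH and Hedgehog list 9 of 51 higher and 5 lower, with BAMBI at 1.15 and HES2 at -1.94. Ion channels had 7 of 48 higher and 3 lower, with KCNK2 at 1.47 and CACNA1H at -1.05, and serpins and protease inhibitors 1 of 14 higher and 2 lower, with SERPINB1 at 1.17 and CSTB at -0.75. KCNK2 was detected on no vector control array, and the 3 higher integrins on 0 (ITGA8), 2 and 1. These genes passed the filter only through the circANRIL arrays, so their calls add no support. ITGA8 lost its call when signals were floored.

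Among the vector-only probes without a single symbol, the brightest had signals of 6.20, 3.11 and 0.802 on circANRIL arrays, against 55.1, 69.2 and 79.1 on vector control arrays. The dimmest averaged 5.50 on circANRIL arrays and 15.3 on vector control arrays. Across vector control arrays the vector-only genes were not brightest on the same one: 14 were brightest on array 1, 22 on array 2 and 22 on array 3, where 33.7%, 30.1% and 36.2% of all probes detected on the vector control arrays were. On array 1, 31 were dimmest, but the share of all probes dimmest there was not computed, so that count is a description only.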
